A study of Mus musculus with 48 samples.

Results

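The libraries compared here hold donor conventional CD8 T cells recovered on day 7 after an allogeneic transplant in which the hosts had also been given iNKT1 or iNKT2 cells. They were chosen by the group in their table columns: 3 libraries with iNKT2 and 3 with iNKT1, which are 6 of the 48 samples of the series. The T cells were FVB/N cells transferred into BALB/c hosts, a major histocompatibility mismatch that causes graft-versus-host disease (GvHD), and they were sorted from spleen and peripheral lymph nodes. All 6 libraries share this donor, host and disease. The groups differ in the label of the iNKT cells given, either iNKT1 or iNKT2. The number of iNKT cells given and the conditioning of the hosts are not given in the sources used here, and neither are the ages and sexes of donors and hosts. For each group the sample titles carry 2 prefix codes, whose meaning is not given. The table columns do not say which library had which code. Other day 7 CD8 groups had GvHD without iNKT cells (untreated) or were given iNKT17 cells, and day 0 CD8 T cells were taken before transplantation, with 3 libraries in each.

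Invariant natural killer T (iNKT) cells carry a nearly invariant T cell receptor that recognises glycolipids on CD1d, and they are studied as regulators of GvHD. iNKT1 cells express T-bet and are known for interferon gamma and cytotoxicity, whereas iNKT2 cells express high PLZF and are known for interleukin 4 (IL-4). IL-4 binds a receptor built from IL-4Rα and the common gamma chain and signals through STAT6. Donor CD8 T cells are themselves effectors of GvHD, since they kill host cells with perforin and granzymes or through Fas ligand and secrete interferon gamma. The comparison therefore sets the expression state of the same donor effector cells under 1 iNKT sublineage against that under the other.

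The 6 libraries held 26134241 to 32758398 counts and detected 17253 to 18027 genes each. Levels are given as CPM (counts scaled to library size), and every difference is the log2 fold change of iNKT2 over iNKT1, so that a positive value is higher with iNKT2. The markers matched the labelled cell type. Cd8a, the alpha chain of the CD8 co-receptor, measured 546, 513 and 464 CPM in the iNKT1 libraries and 565, 453 and 543 CPM in the iNKT2 libraries, and Cd8b1, the beta chain, measured 1168, 1240.0 and 1226 CPM in the iNKT1 libraries and 1266, 1136 and 1200.3 CPM in the iNKT2 libraries. The groups overlapped for both, with log2 fold changes of 0.04 ± 0.11 and -0.01 ± 0.08 (SE). Cd4 was between 0.0354 and 0.789 CPM in the 6 libraries. In bulk libraries such as these, a lower value can come from fewer cells of a type or from less RNA per cell, and the 2 cannot be told apart.

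**Figure D1:**
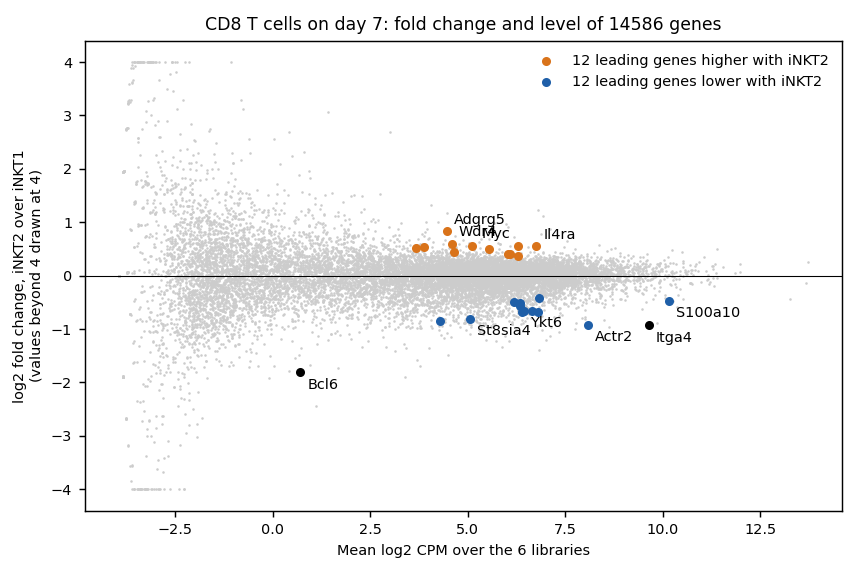
Log2 fold change of iNKT2 over iNKT1 (vertical axis) against the mean log2 CPM over the 6 libraries (horizontal axis) for the 14586 genes tested, 1 grey point a gene. Orange and blue points are the 12 leading genes in each direction, black points are Bcl6 and Itga4, and the grey points narrow around 0 as the level rises.

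No gene passed the test between the 2 treatments. Of 14586 genes, edgeR's quasi-likelihood test called 0 at a Benjamini-Hochberg adjusted p under 0.05 (0% of genes tested), and the smallest adjusted p was 0.115. At an unadjusted p under 0.05 there were 786 genes higher with iNKT2 (5.39% of genes tested) and 945 lower (6.48%), 1731 in all. This total moved with single libraries: it was 915 without iNKT2 library 1, 1081 without iNKT1 library 1 and 2264 without iNKT2 library 2, and 1254 to 1722 without each of the other 3. By the ranges alone, the 3 iNKT2 libraries lay above all 3 iNKT1 libraries for 1321 genes (9.06%) and below them for 1412 (9.68%). The fold change was positive for 7639 of the 14586 genes, the share to set beside the sign counts of the gene lists below. The shares by unadjusted p and by ranges are likewise those to set beside the other list counts. The outcome depended on the tool. DESeq2, run on the same libraries with the same groups, called 14 genes higher (0.0960%) and 26 lower (0.178%). Among the lower ones, Atad2 and an ID without a symbol had the same fold change, SE and p, so the 26 may count the same gene more than once. In edgeR the choice of libraries mattered as well, since a fit of the 6 libraries alone called 4 genes.

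The fold changes were small where they could be measured well. For the 8837 genes whose mean log2 CPM was 3 or more, the 5th and 95th percentiles of the fold change were -0.51 and 0.31, the median was 0.01, and 37 genes (0.419%) lay beyond 2-fold. The median SE in this range was 0.135. The 95% interval of the fold change, not adjusted for the number of genes, lay wholly within 2-fold for 8237 of the 8837 genes (93.2%), but for only 66.4% of all genes tested. Differences above 2-fold are thus outside the interval for most genes of moderate or high level, while smaller ones, and those of weakly expressed genes, were not resolved at 3 libraries a group. Nothing in the labels says that the libraries of a group came from separate animals, so a p-value here measures the spread between libraries within the 5 groups of the fit, which may be technical in part.

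Whole libraries were compared within and between the treatments. The root mean square log2 difference over these 8837 genes was 0.254 to 0.279 for the 3 pairs within iNKT1, 0.240 to 0.322 for the 3 pairs within iNKT2, and 0.265 to 0.455 for the 9 pairs across. iNKT2 library 2 lay 0.265 to 0.300 from the iNKT1 libraries and 0.313 to 0.322 from the other iNKT2 libraries. It was thus nearer to each library of the other treatment than to either of its own.

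**Figure D2:**
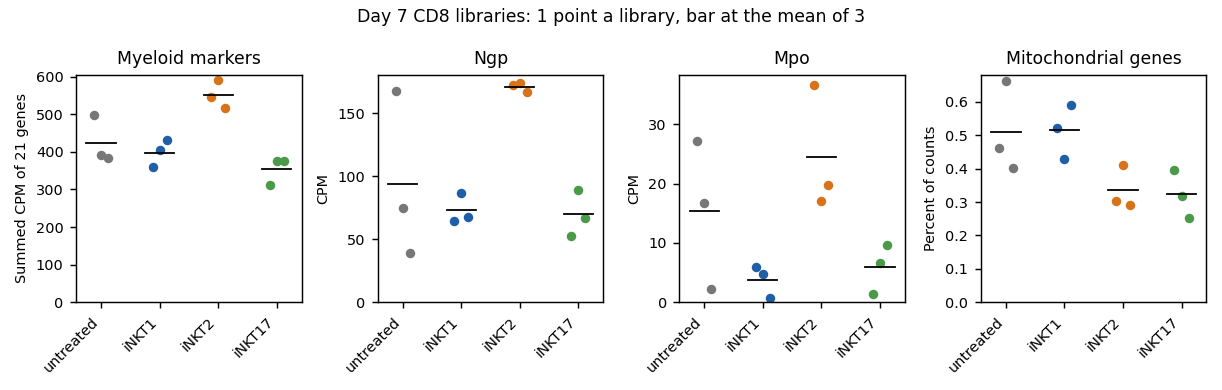
Summed CPM of 21 myeloid markers, CPM of the neutrophil granule genes Ngp and Mpo, and the percent of counts in mitochondrial genes (vertical axes) in the 12 day 7 CD8 libraries, 1 point a library with a bar at the mean of 3. The iNKT2 libraries lie above the iNKT1 libraries in the first 3 panels and below them in the last.

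Of the markers of other cells, those of myeloid cells, and those of iNKT cells given below, summed to more in every iNKT2 library than in every iNKT1 library. Most of the iNKT sum was a single gene, Klrb1c, and the other iNKT markers overlapped in sum. The 21 myeloid and dendritic cell markers summed to 359 to 432 CPM in the iNKT1 libraries and 518 to 592 CPM in the iNKT2 libraries, without overlap. Untreated libraries were at 383 to 499 CPM and iNKT17 libraries at 312 to 376 CPM. Of the 21, 18 had positive fold changes, 5 were higher (Elane, Mpo, Csf1r, Adgre1 and H2-Aa) and 0 lower at an unadjusted p under 0.05, and the median was 0.62, with none called. Over all genes tested, 7639 of 14586 were positive, 5.39% were higher and 6.48% lower by that criterion. By the ranges, 9 of the 21 did not overlap in the higher direction and 0 in the lower, beside 9.06% and 9.68% over all genes. Mpo, myeloperoxidase, measured 5.96, 4.81 and 0.631 CPM in the iNKT1 libraries and 36.6, 17.1 and 19.7 CPM in the iNKT2 libraries, and Elane, neutrophil elastase, measured 0.937, 1.43 and 0.473 CPM in the iNKT1 libraries and 11.7, 5.82 and 6.30 CPM in the iNKT2 libraries. In untreated libraries Mpo ran over 2.23 to 27.2 CPM, overlapping both groups without covering either in full. Csf1r, the macrophage growth factor receptor, had 1.81, 3.04 and 3.19 CPM with iNKT1 against 5.44, 4.03 and 4.88 CPM with iNKT2. No marker of the list was at 0 in all 6 libraries.

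The fit of the 6 libraries alone called 4 genes, Ngp, Chil3 and Lrg1 higher and Csrp1 lower with iNKT2. These names were chosen after their values were seen. Ngp, a neutrophil granule protein, measured 64.7, 86.6 and 67.6 CPM in the iNKT1 libraries and 173, 174 and 166 CPM in the iNKT2 libraries. Chil3, a chitinase-like protein of myeloid cells, measured 75.8, 91.9 and 83.5 CPM in the iNKT1 libraries and 195, 199.997 and 146 CPM in the iNKT2 libraries, and Lrg1, a glycoprotein that neutrophils also make, 4.32, 4.44 and 3.03 CPM in the iNKT1 libraries and 11.2, 11.5 and 11.3 CPM in the iNKT2 libraries. Csrp1, a LIM domain protein of the actin cytoskeleton, measured 122, 106 and 108 CPM in the iNKT1 libraries and 51.8, 65.7 and 61.6 CPM in the iNKT2 libraries. In the 15-library fit none passed, with fold changes of 1.23 ± 0.90, 1.11 ± 0.75, 1.53 ± 0.60 and -0.91 ± 0.26; the untreated libraries alone spread over 38.97 to 167 CPM for Ngp.

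NK and iNKT cell markers were read for carry-over of the transferred or host cells. The 6 NK markers that could be tested all had positive fold changes, with Klrb1c and Tyrobp higher at an unadjusted p under 0.05 and a median of 0.60. Of 7 iNKT markers tested, Klrb1c alone was higher by that criterion and 0 lower, and 4 had positive fold changes. Klrb1c, an NK cell lectin-like receptor gene, measured 8.80, 6.89 and 16.9 CPM in the iNKT1 libraries and 24.8, 30.3 and 26.9 CPM in the iNKT2 libraries, and the untreated libraries 14.6 to 44.1 CPM. The 7 NK markers summed to 149 to 471 CPM with iNKT1 and 243 to 525 CPM with iNKT2, overlapping. The 9 iNKT markers, which include Klrb1c, summed to 10.7 to 20.9 CPM with iNKT1 and 30.1 to 36.3 CPM with iNKT2, without overlap. Klrb1c made up most of this sum in every library, and without it the sums of the groups overlapped. All 9 summed to 20.3 to 49.9 CPM in untreated libraries, whose hosts had been given no iNKT cells. Zbtb16, which encodes PLZF, had 3 counts over the iNKT1 libraries and 10 over the iNKT2 libraries. The 4 CD4 T cell markers summed to 10.5 to 15.05 CPM with iNKT1 and 11.1 to 15.3 CPM with iNKT2.

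Mitochondrial genes took 0.430% to 0.592% of counts with iNKT1 and 0.290% to 0.411% with iNKT2, without overlap. The fold change also ran with the genomic span of a gene: with genes sorted by span into 5 equal bins, the median went from 0.06 in the bin of the shortest genes to -0.12 in that of the longest. Library 2 of each group did not follow this trend. In the longest bin the median log2 deviation from the mean of the 6 libraries was 0.09, 0.0048 and 0.09 in the iNKT1 libraries and -0.13, 0.001 and -0.05 in the iNKT2 libraries. In the shortest bin the groups overlapped, with iNKT1 library 2 at 0.03 and iNKT2 library 2 at -0.01. The part of the myeloid markers, the mitochondrial share and the span in the gene differences given here was not tested.

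**Figure D3:**
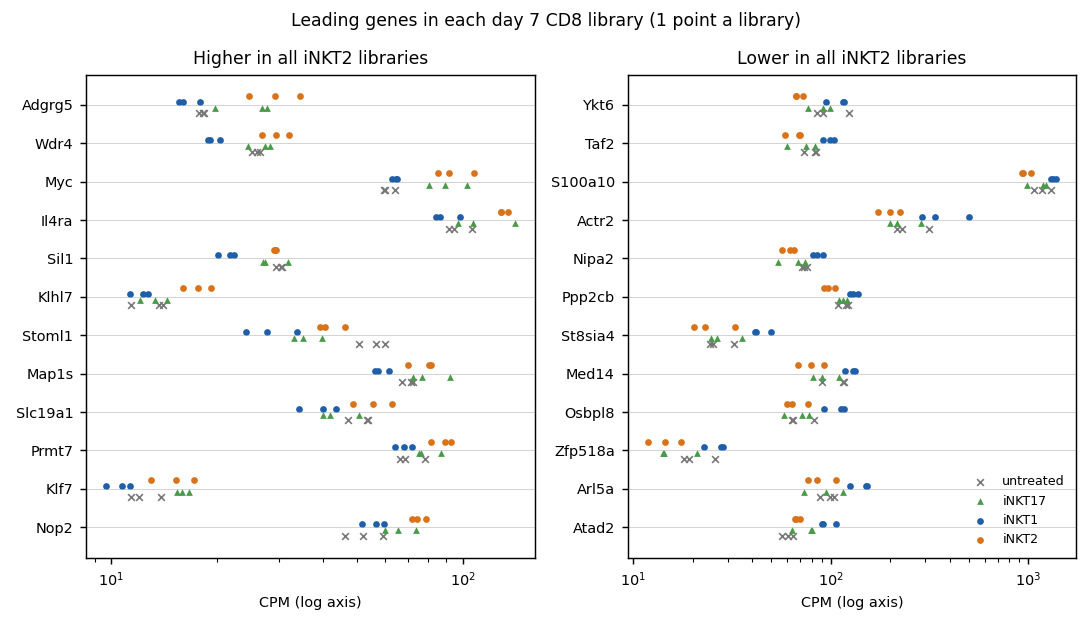
CPM on a log axis (horizontal) of the 12 leading genes higher (left) and the 12 lower (right) with iNKT2, 1 point a library, for the 4 day 7 CD8 groups. The iNKT1 and iNKT2 points of a gene do not overlap because the genes were picked that way, and the untreated mean falls between theirs for 8 of the 12 higher and 11 of the 12 lower genes.

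The leading genes in each direction were taken by smallest p among genes of the same level, 3 or more in mean log2 CPM, whose groups did not overlap. Their separation is thus part of the choice, and none was called by edgeR. In the higher direction they spanned fold changes of 0.36 to 0.83, with adjusted p from 0.115 to 0.351, and DESeq2 called 8 of the 12. In the lower direction they spanned -0.92 to -0.42, all with an adjusted p of 0.351, and DESeq2 called 12 of the 12. Over all genes DESeq2 called 0.0960% higher and 0.178% lower. Since the leading genes were picked by p in the same libraries, their DESeq2 calls are no separate support.

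Of the higher set, the genes with the smallest p and Il4ra are described first. Adgrg5 (ENSMUSG00000061577, chr8:94921811-94943293, GRCm38), an adhesion G protein-coupled receptor, measured 15.6, 16.004 and 17.9 CPM in the iNKT1 libraries and 29.2, 34.3 and 24.7 CPM in the iNKT2 libraries. Its fold change was 0.83 ± 0.14 (95% interval 0.54 to 1.12), with an adjusted p of 0.115 by edgeR's quasi-likelihood test. The day 0 cells had 155 to 171 CPM, so every day 7 library was far below the level before transfer. Wdr4 (ENSMUSG00000024037, chr17:31494322-31519985), the non-catalytic subunit of the tRNA 7-methylguanosine methyltransferase, measured 19.1, 18.9 and 20.4 CPM in the iNKT1 libraries and 26.8, 32.1 and 29.5 CPM in the iNKT2 libraries. Its fold change was 0.60 ± 0.10 (95% interval 0.39 to 0.81). The untreated libraries had 25.1 to 26.6 CPM and the iNKT17 libraries 24.4 to 28.3 CPM, so the iNKT1 libraries were the low ones among the day 7 groups.

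Myc (ENSMUSG00000022346, chr15:61985341-61990361), the transcription factor that drives growth and metabolism of activated T cells, measured 63.1, 64.8 and 65.2 CPM in the iNKT1 libraries and 91.7, 85.1 and 108 CPM in the iNKT2 libraries. The fold change was 0.56 ± 0.10 (95% interval 0.34 to 0.78). Here the iNKT1 libraries sat beside the untreated ones (59.9 to 64.3 CPM), and the iNKT2 libraries beside those with iNKT17 (80.5 to 103 CPM). Il4ra (ENSMUSG00000030748, chr7:125552271-125579474), which encodes the IL-4 receptor alpha chain and is itself a known STAT6 target, measured 86.5, 83.8 and 98.6 CPM in the iNKT1 libraries and 129, 135 and 129 CPM in the iNKT2 libraries. Its fold change was 0.55 ± 0.12 (95% interval 0.29 to 0.80). All 3 iNKT2 libraries were above the untreated libraries (91.8 to 106 CPM), while the iNKT17 libraries ranged over 97.2 to 141 CPM and reached past them.

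The other genes of the higher set were Sil1, a nucleotide exchange factor of the ER chaperone BiP, with 22.4, 20.2 and 21.7 CPM with iNKT1 against 29.2, 29.5 and 29.1 CPM with iNKT2, and 7 more. Klhl7 is an adaptor of a cullin ubiquitin ligase (0.54 ± 0.13), and Stoml1 is a stomatin-like protein (0.55 ± 0.14). Map1s binds microtubules (0.40 ± 0.10), and Slc19a1 is the reduced folate carrier (0.50 ± 0.13). Prmt7 is an arginine methyltransferase (0.36 ± 0.09), Klf7 a zinc finger transcription factor (0.52 ± 0.13) and Nop2 a nucleolar RNA methyltransferase (0.41 ± 0.11). Stoml1 was highest in the untreated libraries, at 50.8 to 60.3 CPM, above every iNKT2 library.

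In the lower set, S100a10 (ENSMUSG00000041959, chr3:93555117-93564645), the annexin A2 partner p11, was its most abundant member, with 1331, 1380.0 and 1297 CPM in the iNKT1 libraries and 924, 1034 and 934 CPM in the iNKT2 libraries. Its fold change was -0.47 ± 0.10 (95% interval -0.69 to -0.26). Actr2 (ENSMUSG00000020152, chr11:20062304-20112951), the Arp2 subunit of the actin-nucleating Arp2/3 complex, measured 336, 289 and 501 CPM in the iNKT1 libraries and 173, 223 and 199 CPM in the iNKT2 libraries. The groups did not overlap, and iNKT1 library 3 was the highest of the 6. The fold change was -0.92 ± 0.20.

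Ykt6 (ENSMUSG00000002741, chr11:5955758-5967780), a SNARE of Golgi and vesicle fusion, measured 94.1, 116 and 115 CPM in the iNKT1 libraries and 66.6, 72.4 and 66.2 CPM in the iNKT2 libraries, a fold change of -0.66 ± 0.14. A pair of subunits of the transcription machinery were in the set: Taf2 of TFIID at -0.58 ± 0.12 and Med14 of Mediator at -0.66 ± 0.15. St8sia4, a polysialyltransferase, had 49.7, 41.3 and 41.99 CPM with iNKT1 against 23.1, 32.8 and 20.3 CPM with iNKT2. The iNKT1 libraries were the high ones for it, above untreated (24.5 to 32.3 CPM) and iNKT17 (24.6 to 35.4 CPM). The others were Nipa2, a magnesium transporter (-0.49 ± 0.11), Ppp2cb, a catalytic subunit of protein phosphatase 2A (-0.42 ± 0.09), and Osbpl8, an ER lipid transfer protein (-0.69 ± 0.16). The set was completed by Zfp518a, a zinc finger protein (-0.85 ± 0.20), Arl5a, a Golgi GTPase (-0.68 ± 0.16), and Atad2, a bromodomain ATPase (-0.51 ± 0.12).

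Relative to the other iNKT treatment and to no treatment, neither iNKT1 nor iNKT2 was uniformly the group that stood apart. The untreated mean lay between the iNKT1 and iNKT2 means for 8 of the 12 higher genes and 11 of the 12 lower genes. On the log scale it was nearer to iNKT2 for 5 of 12 and 6 of 12. The iNKT17 mean lay between them for 10 of the 12 higher and 12 of the 12 lower genes, and was nearer to iNKT2 for 10 of 12 in each direction. These are levels set side by side, with no test of the other groups. The genes were picked for separation of iNKT1 from iNKT2, which by itself favours other groups falling between them. The lower genes had a median genomic span of 36355 bp and the higher genes 23574 bp, against 22295 bp over the 8837 genes of that level.

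Bcl6 (ENSMUSG00000022508, chr16:23965050-23988866), a transcriptional repressor that acts in memory and follicular programs and competes with STAT6 for some sites, had the smallest p of all genes but a low level. It measured 2.07, 2.66 and 4.16 CPM in the iNKT1 libraries and 0.709, 0.893 and 0.920 CPM in the iNKT2 libraries, which are 62, 78 and 132 counts against 18, 29 and 26. The groups did not overlap. The fold change was -1.81 ± 0.27 (95% interval -2.40 to -1.23), with an adjusted p of 0.115 by edgeR's quasi-likelihood test. Without iNKT1 library 1 the same test called it, with a fold change of -2.02 and an adjusted p of 0.0452, and DESeq2 called it with all libraries (adjusted p 3.15e-05). The untreated libraries had 1.40 to 1.61 CPM and the iNKT17 libraries 1.58 to 1.84 CPM, so both lay between the compared groups, and day 0 cells were higher still (7.24 to 9.16 CPM).

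The IL-4 and STAT6 response list, which holds Il4ra and Bcl6, had no member called among 19 tested. At an unadjusted p under 0.05, 3 were higher with iNKT2 (Il4ra, Stat6 and Socs1) and 2 lower (Bcl6 and Arg1), and 13 of the 19 fold changes were positive. The 3 and the 2 of 19 stand beside 5.39% higher and 6.48% lower over all genes tested. The list median was 0.19, against 0.02 over all genes tested. Stat6, the transducer of the IL-4 signal, had 344, 382 and 333 CPM with iNKT1 against 438, 391 and 461 CPM with iNKT2, a fold change of 0.28 ± 0.11. Socs1, a feedback inhibitor of cytokine signalling that interferon also induces, had 29.1, 29.1 and 39.1 CPM with iNKT1 against 48.7, 36.7 and 43.9 CPM with iNKT2, and its groups overlapped. Gata3, the type 2 regulator, measured 51.7, 52.96 and 69.002 CPM in the iNKT1 libraries and 60.8, 62.8 and 75.1 CPM in the iNKT2 libraries, again overlapping, with a 95% interval of -0.17 to 0.56. Arg1 stayed under 0.2 CPM in the 6 libraries and had no count in those with iNKT2, so no fold is given for it, and any value below the median leaves the list median as it is. Il4 itself had 1 count in all iNKT1 libraries and 2 in all iNKT2 libraries, too few to test. DESeq2 called 2 of the list's members, Il4ra and Bcl6, in opposite directions. Over all 14580 genes in that test it called 14 higher and 26 lower.

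Among 23 cytokine receptor subunits tested, 3 were higher at an unadjusted p under 0.05 and 1 lower, with none called and a median of 0.06. Besides Il4ra the higher ones were Ifngr2, the signalling chain of the interferon gamma receptor (2.34, 1.77 and 1.51 CPM with iNKT1 against 2.96, 3.75 and 2.48 CPM with iNKT2), and Il27ra, the interleukin 27 receptor (188, 199.97 and 198 CPM with iNKT1 against 232, 208 and 243 CPM with iNKT2). The lower one was Il1rl1, the interleukin 33 receptor, with 48.1, 60.1 and 75.1 CPM with iNKT1 against 36.6, 57.5 and 30.8 CPM with iNKT2. Its groups overlapped, whereas those of Ifngr2 and Il27ra did not. The common gamma chain Il2rg measured 1069, 1320.5 and 1393 CPM in the iNKT1 libraries and 1820.3, 1231 and 2057 CPM in the iNKT2 libraries, with iNKT2 library 2 inside the range of the iNKT1 libraries. Of 21 IL-2 and STAT5 response genes, Myc, Osm and Tnfrsf4 were higher at an unadjusted p under 0.05 and 0 lower, with a median of 0.17. The counts of both lists stand beside 5.39% higher and 6.48% lower over all genes tested.

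Interferon-induced genes, the longest list, were also the list with the most members at an unadjusted p under 0.05. Of 48 tested, 7 were higher and 1 lower by that criterion, 11 did not overlap in the higher and 2 in the lower direction, and none was called. The median was 0.16 and 34 of the 48 were positive. The shares, 7 of 48 and 11 of 48, stand beside 5.39% and 9.06% over all genes tested. Tap1, the peptide transporter of class I antigen presentation, measured 431, 452 and 468 CPM in the iNKT1 libraries and 558, 587 and 584 CPM in the iNKT2 libraries, a fold change of 0.36 ± 0.10. Igtp, an immunity-related GTPase, measured 245, 260.03 and 310.3 CPM in the iNKT1 libraries and 449.6, 373 and 394 CPM in the iNKT2 libraries, a fold change of 0.58 ± 0.20. The groups did not overlap for either. In untreated libraries Tap1 was at 499.8 to 565 CPM, above the iNKT1 range and up into the iNKT2 range. Zbp1, a sensor of nucleic acids, was the lower one, with 109, 119 and 131 CPM with iNKT1 against 99.8, 105 and 89.99 CPM with iNKT2. Ifng, the cytokine that induces many of these genes, had 63.6, 58.3 and 92.6 CPM with iNKT1 against 64.1, 64.9 and 125 CPM with iNKT2, and the 95% interval of its fold change was -0.26 to 0.75.

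**Figure D4:**
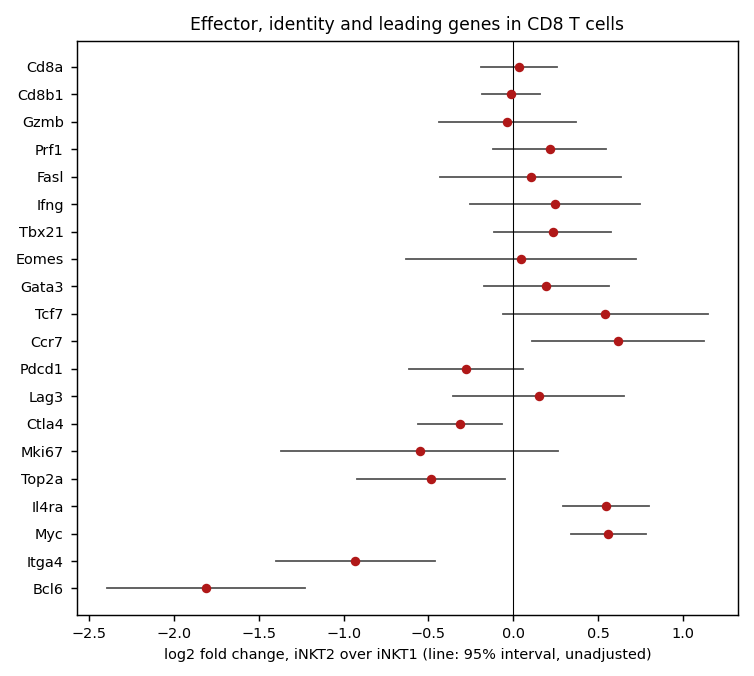
Log2 fold change of iNKT2 over iNKT1 (red point) with its 95% interval, not adjusted for the number of genes (line), for identity, killing, regulatory and leading genes. The intervals of Gzmb, Prf1, Fasl and Ifng include 0, while those of Il4ra, Myc, Itga4 and Bcl6 do not.

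The killing machinery of the CD8 T cells showed no called difference and had fold changes centred near 0. None of 21 cytotoxicity genes tested was called or reached an unadjusted p under 0.05 in either direction, and the median was -0.04. Gzmb, granzyme B, measured 2817, 3111 and 2286 CPM in the iNKT1 libraries and 2832, 2736 and 2442 CPM in the iNKT2 libraries. The ranges overlapped, and the fold change was -0.04 ± 0.19 with a 95% interval of -0.44 to 0.37. Prf1, perforin, measured 598, 628 and 597 CPM in the iNKT1 libraries and 679.8, 597 and 839 CPM in the iNKT2 libraries, with an interval of -0.12 to 0.55. Fasl, the Fas ligand, measured 142, 188 and 219 CPM in the iNKT1 libraries and 207, 132 and 250.2 CPM in the iNKT2 libraries, with an interval of -0.43 to 0.64. These intervals leave room for differences up to about the bounds given, so equality of the groups is not shown. The sign of the fold changes of Gzmb, Fasl and Ifng turned when single libraries were left out. At day 0 Gzmb was at 2.15 to 4.07 CPM, so both treatments had cells with the induced effector level. Values of single granzymes carry the uncertainty of reads shared within the family, since the handling of such reads is not given in the sources used here.

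Effector cytokines and ligands held no called gene either. Of 13 tested, 10 had positive fold changes, 0 were higher and 1 lower at an unadjusted p under 0.05, and the median was 0.14. The lower one was Tnfsf10, which encodes the death ligand TRAIL, with 26.03, 18.3 and 21.9 CPM with iNKT1 against 13.9, 15.7 and 14.5 CPM with iNKT2 and no overlap. Il3, Il5, Il13, Il17a and Il22 had 0 counts in all 6 libraries. Of 10 chemokine genes tested, none reached an unadjusted p under 0.05, and the median was 0.09. Of 20 terminal effector genes none did either, with a median of 0.01.

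Among lineage regulators, Tbx21, which encodes T-bet, measured 648, 655 and 704 CPM in the iNKT1 libraries and 766, 769 and 822 CPM in the iNKT2 libraries. The groups did not overlap, yet the fold change of 0.23 ± 0.16 had a 95% interval of -0.11 to 0.57. Both groups were above the untreated range of 509 to 555 CPM. Eomes, the related factor of memory and cytotoxic cells, had 49.3, 56.7 and 75.2 CPM with iNKT1 against 54.97, 49.3 and 82.7 CPM with iNKT2, overlapping throughout, and its interval was -0.63 to 0.72.

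Of 20 inhibitory receptor and exhaustion genes tested, Cd160 was higher and Ctla4 lower at an unadjusted p under 0.05, with none called and a median of -0.09. Ctla4, the inhibitory counterpart of CD28, measured 80.6, 101 and 80.1 CPM in the iNKT1 libraries and 62.1, 75.7 and 72.5 CPM in the iNKT2 libraries, without overlap. Untreated cells had 129.8 to 152 CPM, above all 6 libraries. Cd160 measured 214, 213 and 212 CPM in the iNKT1 libraries and 268, 274 and 234 CPM in the iNKT2 libraries. Pdcd1, which encodes PD-1, had 722, 761 and 698 CPM with iNKT1 against 544, 749.7 and 502 CPM with iNKT2, with iNKT2 library 2 inside the iNKT1 range, and its interval was -0.62 to 0.05. Lag3 had 24.3, 19.6 and 19.8 CPM with iNKT1 against 22.1, 27.5 and 21.1 CPM with iNKT2, and its groups overlapped. Of 16 costimulation genes tested, Tnfrsf18 (GITR) and Tnfrsf4 (OX40) were higher and Cd28 and Cd226 lower by the same criterion, with a median of 0.04.

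Genes of naive and memory cells had mostly positive fold changes, and none was called. Of 22 tested, 17 had positive fold changes and the median was 0.21, while 2 (Ccr7 and Satb1) were higher at an unadjusted p under 0.05 and 0 lower. Over all genes tested, 7639 of 14586 were positive and 5.39% were higher by that criterion. Ccr7, the receptor for entry into lymph nodes, measured 24.3, 24.7 and 31.9 CPM in the iNKT1 libraries and 46.7, 49.2 and 28.3 CPM in the iNKT2 libraries. Tcf7, which encodes TCF-1, measured 81.6, 59.1 and 98.5 CPM in the iNKT1 libraries and 102, 168 and 78.4 CPM in the iNKT2 libraries. In both genes, iNKT2 library 3 was within the iNKT1 range, while iNKT2 library 2 was the highest of the 6. The genes were also far below day 0, where Ccr7 was at 1229 to 1437 CPM and Tcf7 at 1015 to 1141 CPM.

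Homing genes included a difference at a high expression level. Itga4 (ENSMUSG00000027009, chr2:79255426-79333114), the alpha 4 chain of the integrins VLA-4 and α4β7 that carry T cells into inflamed tissue and gut, measured 1209, 968 and 1156 CPM in the iNKT1 libraries and 525, 716 and 506 CPM in the iNKT2 libraries. All iNKT2 libraries were below all iNKT1 libraries, and the fold change was -0.93 ± 0.22 (95% interval -1.40 to -0.46, adjusted p 0.351 by edgeR's quasi-likelihood test), while DESeq2 called it. Untreated libraries had 644 to 980.4 CPM and iNKT17 libraries 442 to 856 CPM, both reaching into the iNKT2 range. Itga1, the collagen-binding alpha 1 integrin, had 15.96, 11.8 and 18.9 CPM with iNKT1 against 8.16, 9.97 and 9.59 CPM with iNKT2, and Cxcr5, the receptor for entry into follicles, had 2.07, 0.717 and 1.80 CPM with iNKT1 against 5.00, 5.23 and 2.90 CPM with iNKT2. Among 27 homing genes tested 2 were higher (Ccr7 and Cxcr5) and 2 lower (Itga4 and Itga1) at an unadjusted p under 0.05, and the median was -0.06.

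**Figure D5:**
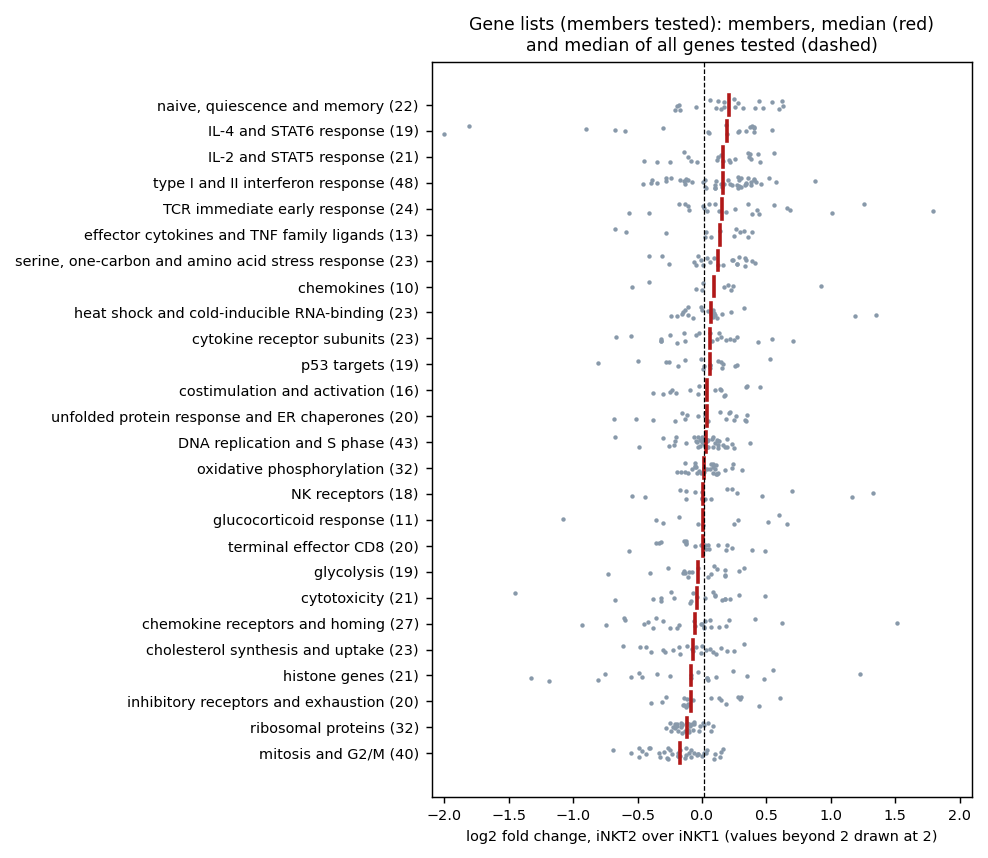
Log2 fold changes of iNKT2 over iNKT1 (horizontal axis) for the members of 26 gene lists, 1 grey point a gene, with each list's median in red and the median of all genes tested as a dashed line. Medians run from -0.17 for mitosis to 0.21 for naive and memory genes, and Arg1, which had no count with iNKT2, is drawn at the left edge.

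Mitosis genes had mostly negative fold changes, while DNA replication genes did not. Of 40 mitosis and G2/M genes tested, 8 had positive fold changes, 0 were higher and 4 lower (Top2a, Foxm1, Ncapg and Smc2) at an unadjusted p under 0.05, and 11 did not overlap in the lower direction and 0 in the higher. The 4 of 40 and the 11 of 40 stand beside 6.48% and 9.68% over all genes tested. The summed level of the list overlapped between the groups, at 6728 to 7284 CPM with iNKT1 and 5394 to 6987 CPM with iNKT2. The median was -0.17, and none was called. Top2a, the topoisomerase of dividing cells, measured 357, 337 and 464 CPM in the iNKT1 libraries and 246, 261 and 319 CPM in the iNKT2 libraries. Foxm1, a transcription factor of the G2/M program, had 88.1, 77.2 and 73.2 CPM with iNKT1 against 50.9, 55.3 and 66.5 CPM with iNKT2. Neither overlapped, whereas Mki67, which encodes Ki-67, did: it had 177, 105 and 155 CPM with iNKT1 against 103, 83.6 and 111 CPM with iNKT2, and its interval was -1.37 to 0.27. Of the 43 DNA replication genes 28 had positive fold changes, with a median of 0.03, and 1 was higher (Pold1) and 3 lower (Pola1, Rfc1 and E2f2) at an unadjusted p under 0.05. Pola1, the catalytic subunit of the polymerase alpha primase, was among the lower ones, with 69.9, 63.2 and 59.2 CPM with iNKT1 against 38.9, 36.2 and 45.2 CPM with iNKT2.

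Lists of activation and biosynthesis genes were read in the same way. Of 24 immediate early genes tested, Myc, Egr1, Egr2, Ier2 and Atf3 were higher and Ier3 lower at an unadjusted p under 0.05, and the median was 0.16. Egr2, a factor induced by T cell receptor signalling, had 8.83, 4.85 and 8.01 CPM with iNKT1 against 11.7, 11.9 and 11.2 CPM with iNKT2, without overlap. Of 23 genes of serine, one-carbon and amino acid metabolism tested, 6 were higher and 0 lower, and the median was 0.12. The counts of higher genes, 5 of 24 and 6 of 23, stand beside 5.39% over all genes tested, and no gene of either list was called. Asns, asparagine synthetase, had 31.1, 33.99 and 27.5 CPM with iNKT1 against 39.1, 42.1 and 39.8 CPM with iNKT2. Slc3a2, the heavy chain of amino acid transporters, had 129, 127 and 130.02 CPM with iNKT1 against 164, 163 and 161 CPM with iNKT2, and the glutamine transporter Slc1a5 had 217, 251 and 226 CPM with iNKT1 against 334, 263 and 325 CPM with iNKT2. The groups did not overlap for these 3 genes, and Shmt2, a mitochondrial serine hydroxymethyltransferase, did not overlap either (143, 142 and 149 CPM with iNKT1 against 171, 162 and 179 CPM with iNKT2).

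Energy metabolism held few such genes. Of 19 glycolysis genes Pfkl was higher and Hk2 lower at an unadjusted p under 0.05 (median -0.03), and of 32 oxidative phosphorylation genes Ndufv1 and Uqcrc1 were higher (median 0.02). Cholesterol genes had 0 higher and 3 lower (among them Sc5d and Idi1) of 23, with a median of -0.07. Of these 23, 6 did not overlap in the lower direction and 0 in the higher. Beside them, 6.48% of all genes tested were lower at that p and 9.68% did not overlap in the lower direction. In the unfolded protein response list, Hspa5 (BiP) and Xbp1 were higher and Canx and Hsp90b1 lower, with a median of 0.04 over 20 genes. None of the 32 ribosomal protein genes reached an unadjusted p under 0.05, 5 were positive, and the median was -0.11.

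Donor CD4 T cells from the same transplants gave the same contrast on other libraries, which may come from the same animals. In them 0 of 15031 genes were called (0%), 513 had an unadjusted p under 0.05 (3.41%), the smallest adjusted p was 0.872, and DESeq2 called 4. The direct test of whether the fold change differed between CD8 and CD4 T cells called 0 of 15601 genes (0%), with 291 at an unadjusted p under 0.05 (1.87%), and DESeq2 called 6. The 24 leading CD8 genes had the same sign in CD4 T cells in 12 of 12 higher and 12 of 12 lower cases, while 81.0% of the 8837 genes of that level shared their sign. At an unadjusted p under 0.05 in CD4 T cells there were 4 of the higher and 2 of the lower genes. Il4ra had a CD4 fold change of 0.65 ± 0.23, S100a10 of -0.56 ± 0.18 and Itga4 of -0.96 ± 0.51, each with the sign of its CD8 value. Bcl6 had 0.22 ± 0.38 in CD4 T cells. The difference of -2.04 ± 0.47 between the cell types had an unadjusted p of 0.00024 and an adjusted p of 1 by edgeR's quasi-likelihood test, and so was not called.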

How the data were processed

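The authors deposited counts, as whole numbers not normalized, in a table of 35661 IDs (98.2% with a symbol). Per the labels' protocols, RNA was taken with TRIzol and libraries were made with SMARTer v4 cDNA and Nextera XT. The submitters' processing notes list STAR 2.5.4, kallisto and DESeq2 1.22.2 among other tools, and name mm10 and GRCm38; which tool made this table is not given; use of strand and of shared reads is not given in the sources used here. Every column was matched to a group (0 unmatched).

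From these counts, edgeR 4.0.16 (R 4.3.3) was run with a low-count filter by group, TMM scaling, robust quasi-likelihood fitting and Benjamini-Hochberg adjustment (calls at an adjusted p under 0.05). The fit held 15 CD8 libraries in 5 groups, and 30 libraries for the difference between CD8 and CD4 T cells. CPM use the TMM factors. SEs come from the F statistic and 95% intervals from the t distribution with the fit's degrees of freedom. The fit was also run on counts simulated from its own fitted means and dispersions. That run cannot show how well the model suits the real libraries.

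Named genes were the 12 with the smallest p in each direction (mean log2 CPM at least 3, groups not overlapping, predicted genes, pseudogenes, ribosomal, mitochondrial, receptor-segment, Xist and Y-linked genes left out), up to 4 members of each of 36 lists and 18 key genes. No gene was called, so all places of the first kind went by p. Stat6, Egr1, Ier2 and Csf1r were named after their values were seen. Comparison, genes and lists were chosen with earlier results of these data known. DESeq2 1.42.0, other scaling, no filter, other sets of libraries and a replicate block were tried. Positions are those of RefSeq genes on GRCm38.p6.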

Additional observations from a re-analysis of the deposited data

How the results depend on the processing

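For CD8 T cells, edgeR's count of 0 called genes was also 0 with relative log expression scaling, without the low-count filter, with the replicate block and with the 12 day 7 libraries alone, a fit chosen after seeing the data. It was 40 with DESeq2, among them Atad2 and an ID without a symbol whose values were identical. With the 6 compared libraries alone it was 4, and 0 to 1 when leaving out each library in turn (the 1 is Bcl6, without iNKT1 library 1). For CD4 T cells the count was 4 with DESeq2 and 0 in every other setting run, and for the difference between the cell types 6 with DESeq2 and 0 in every other setting run. The cause of these differences was not tested. Among the 4 settings with all libraries of both groups and no call, the smallest adjusted p in CD8 T cells was 0.0627 without the filter, 0.101 with the other scaling, 0.253 with the replicate block and 0.4 with the day 7 libraries. Whether the column numbers pair the libraries is not settled. Same-numbered iNKT1 and iNKT2 libraries had correlations of -0.03, -0.08 and 0.11 in their deviations from the group means. Those of unlike number ran from -0.10 to 0.13. Deviations within a group sum to 0, so these values cannot exclude pairing. The summed chemokine genes were highest in library 3 of both groups (1282 and 1132 CPM). The same held in the untreated and iNKT17 groups (1046 and 1200 CPM). Library 3 was also highest in all 4 day 7 CD8 groups for the summed NK cell markers and terminal effector genes. For the latter it had 7120 CPM with iNKT1 and 7203 CPM with iNKT2. Not every list ran this way, since the summed mitosis genes were highest in iNKT1 library 2 and iNKT2 library 3. The main fit had no term for the library number, and what the numbers share was not tested. Of 113 genes named in the text, 107 kept the sign of their fold change in every alternative run. The other 6 turned only when 1 library was left out, with ranges of -0.151 to 0.0659 for Gzmb, -0.11 to 0.31 for Fasl, -0.15 to 0.48 for Ifng, -0.21 to 0.23 for Eomes, -0.0276 to 0.114 for Cd8a and -0.0523 to 0.0134 for Cd8b1. Across gene lists, 6 of 432 counts of called members moved, by 1 or 2 genes.

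With 3 libraries a group, the median 95% half-width was 0.287 on the log2 scale for the 8837 genes of higher level, not adjusted for the number of genes. It is no fixed limit. The interval of Shmt2 excluded 0 at a smaller fold change (0.24, 0.05 to 0.43), and intervals were wider for genes of low count such as Bcl6. After adjustment no fold change was called by the main fit, whatever its size, including that of Actr2 (-0.92). No fit with the prefix code of the sample titles as a term was made, because the columns do not give it.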

Other observations

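Among the other gene groups, the 23 heat shock and cold-inducible genes had a median of 0.07, with Hsf1 higher and Hspd1 lower at an unadjusted p under 0.05. Of 19 p53 targets, Trp53inp1, Ei24 and Ccng1 were lower and 0 higher, with a median of 0.06. Over all genes tested 6.48% were lower by that criterion. Of 11 glucocorticoid response genes, Klf9 was higher and Nr3c1, the glucocorticoid receptor, lower, with 68.3, 59.8 and 70.1 CPM with iNKT1 against 46.8, 55.2 and 52.3 CPM with iNKT2 for the latter. Of 21 histone genes, Hist1h4d and Hist1h1b were lower, with a median of -0.08. These families share sequence, so single histone values carry that uncertainty. Of 18 NK receptors tested, Klrb1c and Tyrobp were higher and 0 lower, with a median of 0.01. None of these genes was called by edgeR's quasi-likelihood test.

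Marker lists of further cell types gave no called gene. Of 8 regulatory T cell genes, Tnfrsf18 was higher and Foxp3 and Ctla4 lower at an unadjusted p under 0.05. Foxp3, the factor that defines regulatory T cells, measured 2.94, 6.59 and 4.35 CPM in the iNKT1 libraries and 1.10, 1.82 and 3.68 CPM in the iNKT2 libraries, overlapping between the groups. Of 12 B and plasma cell markers and 6 stromal, endothelial and epithelial markers tested none was at an unadjusted p under 0.05, of 5 gamma delta T cell markers Sox13 was higher (0.234, 0.205 and 0.189 CPM with iNKT1 against 0.591, 0.554 and 0.743 CPM with iNKT2), and of 13 erythroid and platelet markers Pf4 and Itga2b were higher. Of 10 CD8 identity genes none reached it, and the median was 0.07. By the ranges, 3 of the 10 did not overlap in the higher direction and 0 in the lower, beside 9.06% and 9.68% over all genes tested.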
